A study of Mus musculus with 4 samples.

Results

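The GIMAP genes, short for GTPases of the immunity-associated protein family, form a cluster on mouse chromosome 6. The 8 genes named Gimap1, Gimap3, Gimap4, Gimap5, Gimap6, Gimap7, Gimap8 and Gimap9 were taken by symbol from the 49671 genes of the deposited tables, and all 8 were found on chromosome 6. They were measured in CD3+ T cells from the spleens of 4 female F1 hybrids, labelled as biological replicates of 1 group. Each mouse had a C57BL/6 mother from a line with a heterozygous Xist deletion and a Mus musculus castaneus father, so every autosomal gene carried 1 maternal C57BL/6 and 1 paternal Castaneus allele. After column enrichment the cells spent 48 hours on plates coated with anti-CD3 (1 µg/ml), with anti-CD28 (10 µg/ml) in solution. The medium also held 2.5 µM IMD-0354, a compound that blocks IKKβ, the kinase through which NF-κB factors are freed to enter the nucleus. No library without stimulation or without the inhibitor was analysed here, so the values describe this 1 condition, and the comparison that the data allow is between the alleles within each mouse. Since all mothers were C57BL/6 and all fathers Castaneus, strain and parent of origin cannot be told apart.

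GIMAP proteins are small GTPases related in fold to septins and dynamins. Several are anchored in membranes of the endoplasmic reticulum, lysosomes or other organelles, and they are found mainly in lymphocytes, where they act on survival. Loss of Gimap5 in mice and rats leaves few long-lived peripheral T cells, Gimap1 is needed for mature T and B cells in mice, Gimap4 affects how T cells die by apoptosis, and GIMAP6 takes part in autophagy through the Atg8 protein GABARAPL2. Gimap3 is a close relative of Gimap5 that arose in rodents, and in mouse crosses it was mapped as a gene that alters the segregation of mitochondrial DNA in blood cells, with a splicing difference between Mus musculus castaneus and laboratory strains. Gimap7 belongs to the group whose human members were shown to pair as dimers for GTP hydrolysis, and Gimap8 is the longest family member, with several GTP-binding domains.

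The cluster spans 123.6 kb, from 48647234 to 48770851 on chromosome 6 (mm10, GENCODE M21). Along the chromosome the genes lie in the order Gimap8 (ENSMUSG00000064262, 48647234 to 48660875), Gimap9 (ENSMUSG00000051124, 48676129 to 48679114), Gimap4 (ENSMUSG00000054435, 48684549 to 48692060), Gimap6 (ENSMUSG00000047867, 48701582 to 48708225), Gimap7 (ENSMUSG00000043931, 48718621 to 48724636), Gimap1 (ENSMUSG00000090019, 48739054 to 48743795), Gimap5 (ENSMUSG00000043505, 48746197 to 48754210) and Gimap3 (ENSMUSG00000039264, 48764464 to 48770851). Gimap6 and Gimap3 lie on the minus strand and the other genes on the plus strand.

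The start regions of the 4 genes whose alleles differed in the test below are shown because they belong to the genes on which the allelic results turn. They are RefSeq sequences of build GRCm38.p6, which is the C57BL/6 genome, from 250 bases before to 50 bases after the annotated start, 5′ to 3′ on the gene's strand. All 8 genes had an entry, with 9 start regions in all, Gimap8 having 2, of which the first is shown. Capitals mark matches, on either strand, to the ETS core GGAAGT, the RUNX core TGTGGT or a κB form, GGG and TTCC with any 3 bases between them.
Gimap8 (chr6:48646984-48647283, plus strand): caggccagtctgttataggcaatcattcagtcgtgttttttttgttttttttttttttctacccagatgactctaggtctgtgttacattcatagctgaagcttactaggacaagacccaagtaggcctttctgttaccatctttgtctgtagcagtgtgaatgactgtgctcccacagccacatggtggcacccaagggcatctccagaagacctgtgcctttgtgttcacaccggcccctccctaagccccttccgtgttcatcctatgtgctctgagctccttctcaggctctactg
Gimap6 (chr6:48708195-48708494, minus strand): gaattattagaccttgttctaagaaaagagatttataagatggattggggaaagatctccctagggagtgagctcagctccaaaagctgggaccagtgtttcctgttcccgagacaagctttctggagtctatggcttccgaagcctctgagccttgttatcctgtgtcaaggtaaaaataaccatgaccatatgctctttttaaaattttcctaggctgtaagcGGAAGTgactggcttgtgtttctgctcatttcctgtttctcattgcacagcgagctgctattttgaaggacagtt
Gimap4 (chr6:48684328-48684627, plus strand): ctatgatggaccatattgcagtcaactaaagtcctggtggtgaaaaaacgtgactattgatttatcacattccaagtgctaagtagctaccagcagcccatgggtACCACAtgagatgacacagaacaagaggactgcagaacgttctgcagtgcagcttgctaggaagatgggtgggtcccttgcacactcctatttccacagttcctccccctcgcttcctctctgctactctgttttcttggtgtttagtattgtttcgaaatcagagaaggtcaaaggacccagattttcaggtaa
Gimap3 (chr6:48770802-48771101, minus strand): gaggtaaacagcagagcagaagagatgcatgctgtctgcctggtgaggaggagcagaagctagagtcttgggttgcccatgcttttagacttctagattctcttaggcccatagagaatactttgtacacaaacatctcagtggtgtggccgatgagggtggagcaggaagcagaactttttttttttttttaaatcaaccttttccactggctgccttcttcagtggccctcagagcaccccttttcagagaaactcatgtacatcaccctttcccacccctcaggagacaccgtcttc
The window of Gimap6 holds an ETS core 25 bases before the start, and that of Gimap4 a RUNX core 145 bases before it, read on the opposite strand. The windows of Gimap8 and Gimap3 hold none of the 3 forms. Over the 9 windows of the family, 4 hold the ETS core, 3 the RUNX core and 0 the κB form, against 23.8%, 16.8% and 5.56% of 32851 windows of the same length over the genome. These matches describe letters of the C57BL/6 genome only, the Castaneus sequence was not used here, and no binding was measured.

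Allelic reads, those that could be given to the C57BL/6 or the Castaneus allele, numbered 30539711 to 34992012 per replicate over all genes. Reads were clumped, with an estimated 11.4, 22.6, 13.0 and 7.19 reads per original molecule in replicates 1 to 4, taken from how often genes with few reads were seen from 1 allele only, so replicate 2 carries the least and replicate 4 the most independent information. RNA of T cells was present, since all 7 T cell markers had at least 1 RPKM (reads scaled to gene length and library depth). Their summed level was 279 to 307 RPKM per replicate. Markers of other cells that express GIMAP genes were lower. The summed level of 5 B cell markers was 4.61 to 10.5 RPKM, highest in replicate 1, that of both NK cell markers 0.0521 to 0.231 RPKM, and that of 5 endothelial markers 2.95 to 3.86 RPKM, nearly all from Pecam1, with Cdh5 at 0 in every replicate. The 6 myeloid markers summed to 37.1 to 99.4 RPKM, highest in replicate 2 and mostly Lyz2 and Cd68. Lyz2 alone had 74.4 RPKM in replicate 2, above each of the 7 T cell markers there, of which Cd2 was highest at 72.6 RPKM. The 3 red cell and platelet markers summed to 1.93 to 5.75 RPKM. The part of these cells in the results was not tested.

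All 8 GIMAP genes were expressed, at levels that spanned 32.9-fold. Gimap4, with 54.3 ± 9.58 RPKM, and Gimap6, with 34.3 ± 3.18 RPKM, led the family and together made up 49.7% of its summed RPKM (SD, n = 4). Gimap3, Gimap9 and Gimap8 stood at a common middle level, Gimap1 and Gimap5 were lower, and Gimap7 was the lowest member. The median over the 8 mean levels was 24.0 RPKM, against 3.06 RPKM over the 16751 genes averaging 0.1 RPKM or more.

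**Figure D1:**
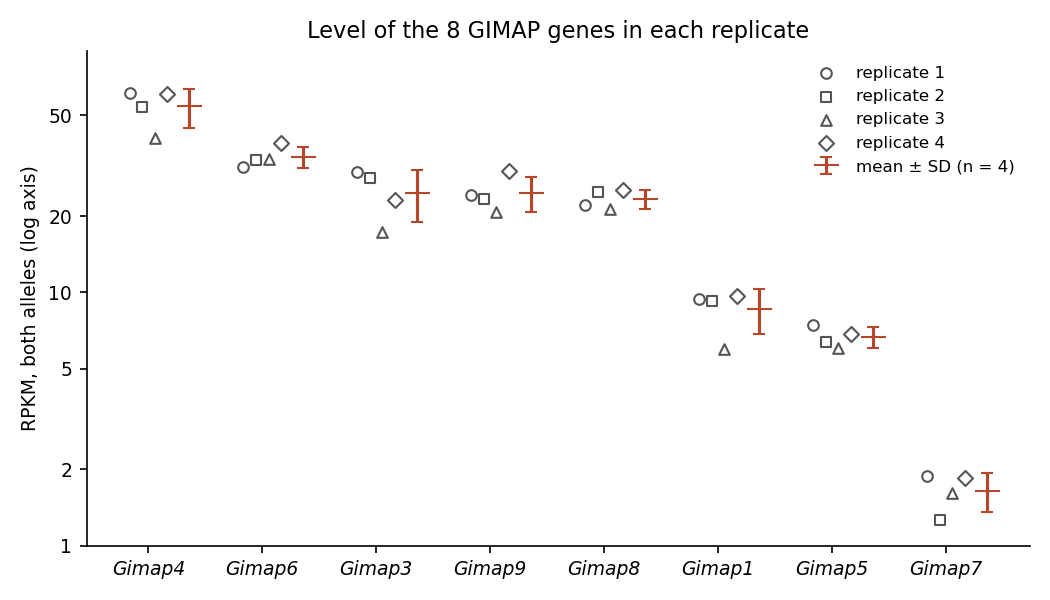
RPKM of each GIMAP gene on a log axis, with genes ordered by mean level, replicates as open symbols and the mean ± SD over 4 replicates in red. Gimap4 (40.8 to 61.4 RPKM) lay above Gimap6 (31.4 to 38.8 RPKM) without overlap, Gimap3, Gimap9 and Gimap8 overlapped, and Gimap7 (1.26 to 1.88 RPKM) lay below all others.

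Gimap4, whose product affects the timing of T cell death, had 61.4, 53.9, 40.8 and 60.8 RPKM in replicates 1 to 4, and its mean was above 97.0% of the 16751 genes. Gimap6, the autophagy-linked member, had 31.4, 33.3, 33.7 and 38.8 RPKM and was above 94.2% of genes. Gimap4 exceeded Gimap6 in 4 of 4 replicates, by 19.9 ± 9.49 RPKM, and their ranges did not overlap.

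Gimap3 had 30.0, 28.4, 17.4 and 23.2 RPKM in replicates 1 to 4, with a mean of 24.7 ± 5.68 RPKM. Gimap9 had 24.3, 23.4, 20.7 and 30.1 RPKM, with a mean of 24.6 ± 3.93 RPKM, and Gimap8 had 22.2, 24.8, 21.3 and 25.4 RPKM, with a mean of 23.4 ± 2.01 RPKM. These genes did not differ beyond their spread. Gimap3 exceeded Gimap9 in 2 of 4 replicates, by 0.0991 ± 6.19 RPKM, and Gimap9 exceeded Gimap8 in 2 of 4, by 1.19 ± 2.75 RPKM. All of them lay below Gimap6, the difference between Gimap6 and Gimap3 being 9.58 ± 7.52 RPKM and in that order in 4 of 4 replicates.

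Both members with the best-known role in T cell survival were at modest levels. Gimap1 had 9.45, 9.22, 5.96 and 9.68 RPKM in replicates 1 to 4, a mean of 8.58 ± 1.75 RPKM, and Gimap5 had 7.46, 6.37, 6.03 and 6.87 RPKM, a mean of 6.68 ± 0.625 RPKM. Gimap1 exceeded Gimap5 in 3 of 4 replicates, by 1.89 ± 1.37 RPKM, and their ranges overlapped. In RPKM, Gimap3 was thus well above its relative Gimap5, with no overlap between their replicates. Allelic reads went the other way, with 11071 for Gimap5 and 8038 for Gimap3 over the 4 replicates. Per kilobase of exon and RPKM, Gimap5 had 99.5 ± 8.38 allelic reads and Gimap3 32.4 ± 5.30. The cause of this difference was not tested. Gimap7 had 1.88, 1.26, 1.61 and 1.85 RPKM, a mean of 1.65 ± 0.287 RPKM, and was above 39.3% of genes. It lay below Gimap5 in 4 of 4 replicates, by 5.04 ± 0.480 RPKM.

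The summed level of the family was 188, 181, 148 and 197 RPKM in replicates 1 to 4, with a mean of 178 ± 21.5 RPKM. Replicate 3 had the lowest value of 6 of the 8 genes, Gimap6 and Gimap7 being the exceptions, where 30.4% of the 11070 autosomal genes with at least 1 RPKM were lowest in replicate 3. After the replicates were scaled to the same median over expressed genes, replicate 3 was lowest for 5 of the 8. The summed T cell markers were also lowest in replicate 3, at 279 RPKM, and the family's sum divided by that of the T cell markers was 0.618, 0.612, 0.530 and 0.640 in replicates 1 to 4. The part of cell makeup in these differences was not tested. In such bulk RNA, fewer cells of a type and less RNA per cell cannot be told apart. The median coefficient of variation over replicates was 16.7% for the 8 genes and 11.3% for autosomal genes with at least 1 RPKM, with Gimap3 at 23.0% and Gimap8 at 8.55% as the extremes in the family.

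Genes that mark the state of T cells set these levels in context. Among genes typical of resting T cells, the homing receptor gene Ccr7 had 720 ± 41.0 RPKM, the egress receptor gene S1pr1 22.3 ± 2.15, the interleukin receptor gene Il7r 20.5 ± 2.15 and the transcription factor gene Klf2 11.7 ± 1.52. Of 5 genes typical of activated T cells, Il2ra had 46.3 ± 4.35 RPKM, Myc 43.2 ± 3.44, the early activation marker gene Cd69 32.3 ± 2.07, the transferrin receptor gene Tfrc 11.8 ± 1.49 and the proliferation marker gene Mki67 0.535 ± 0.142 (SD, n = 4). The cultures thus held RNA of both groups, with Mki67 below 1 RPKM.

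The alleles of the GIMAP genes were not read equally, and the direction differed within the cluster. Gimap8, Gimap6 and Gimap4 had fewer reads from the Castaneus than from the C57BL/6 allele, Gimap3 at the far end had more, and the other 4 genes did not pass the test. Each gene was tested for a ratio of Castaneus to C57BL/6 reads different from 1 with edgeR's quasi-likelihood test, the mouse as a block and Benjamini-Hochberg adjustment over 10268 autosomal genes, and it is called when the adjusted p is under 0.05. Of the 8 genes, which all passed the minimum of 20 allelic reads and 1 RPKM, 1 was called higher from Castaneus and 3 higher from C57BL/6. Over all autosomal genes tested, 12.4% were called higher from Castaneus, 15.6% higher from C57BL/6 and 28.1% in either direction, so that calls are common outside the family as well. Without the mouse as a block, 9.37%, 11.1% and 20.5% of all genes were called in these directions, and 0 and 2 members. The median log2 ratio was -0.24 over the 8 genes and -0.04 over all genes tested, and the median size of the log2 ratio, whatever its sign, was 0.35 and 0.26. A median like that of the family was also seen outside it. Of the 7 T cell markers 6 were tested, with a median log2 ratio of -0.25. Of these, 0 were called higher from Castaneus and 2 higher from C57BL/6.

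**Figure D2:**
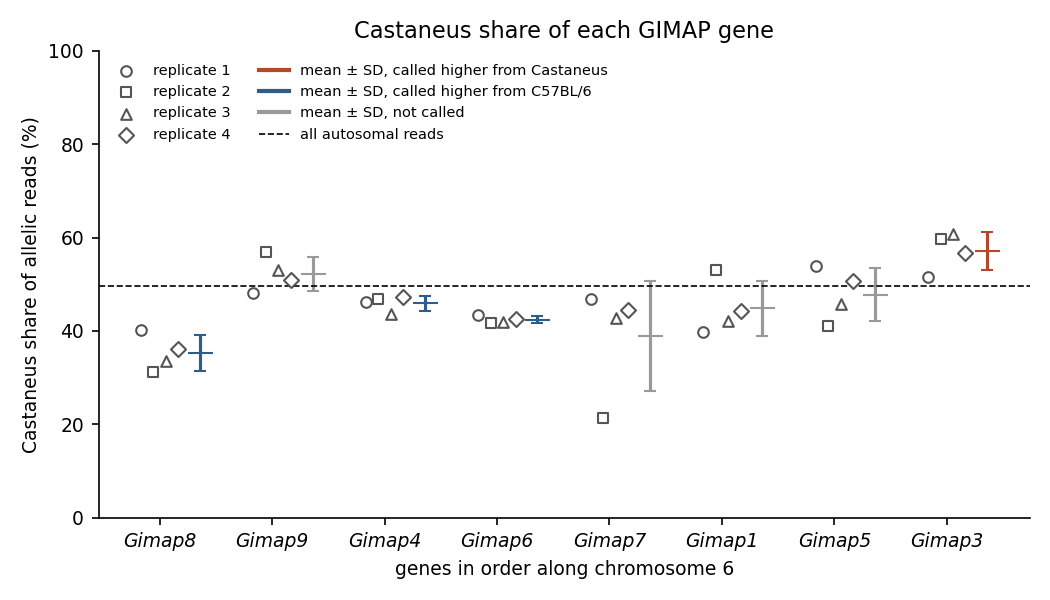
Castaneus share of the allelic reads of each GIMAP gene in percent, in order along chromosome 6, with replicates as open symbols and the mean ± SD over 4 replicates coloured by the test result. The dashed line is the share over all autosomal reads. All replicates of Gimap8, Gimap4, Gimap6 and Gimap7 lie below it and all of Gimap3 above it, and replicate 2 of Gimap7 stands apart at 21.5%.

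Gimap8 had the lowest Castaneus share of the family. Its Castaneus allele gave 686, 455, 532 and 619 reads in replicates 1 to 4, against 1016, 998, 1055 and 1089 reads from C57BL/6. The share was 40.3%, 31.3%, 33.5% and 36.2%, a mean of 35.3% ± 3.87 (SD, n = 4), and was below the share of all autosomal reads, 49.5% to 49.7% per replicate, in 4 of 4 replicates. The log2 ratio was -0.85 with a standard error of 0.13 (edgeR, adjusted p = 0.000516), a larger size than in 84.5% of the genes tested. The call held in all 12 alternatives of filter, scaling, tool and replicates. Gimap8 had few allelic reads for its level, 18.7 ± 2.22 reads per kilobase of exon and RPKM, against a median of 45.4 over 6143 autosomal genes of at least 5 RPKM. The part of alignment and allele assignment in its Castaneus share was not tested.

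Gimap6 leaned the same way with the smallest spread. It had 4653, 3878, 4497 and 5091 reads from Castaneus in replicates 1 to 4, against 6037, 5426, 6210 and 6894 from C57BL/6. The Castaneus share was 43.5%, 41.7%, 42.0% and 42.5%, a mean of 42.4% ± 0.806, below the autosomal share in 4 of 4 replicates. The log2 ratio was -0.42 with a standard error of 0.05 (edgeR, adjusted p = 0.0001), and this call also held in all 12 alternatives. With 42686 allelic reads over the 4 replicates, 38.0% of the family's total, Gimap6 was its most deeply read gene.

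Gimap4 showed a small difference. It had 4086, 3254, 2707 and 4047 reads from Castaneus in replicates 1 to 4, against 4771, 3691, 3492 and 4523 from C57BL/6, a share of 46.1%, 46.9%, 43.7% and 47.2%. All replicates were below the autosomal share, with a mean of 46.0% ± 1.60 and a log2 ratio of -0.21 with a standard error of 0.06 (edgeR, adjusted p = 0.0234). The call was lost in 5 of 12 alternatives, namely edgeR's test when replicate 1, 3 or 4 was left out (adjusted p = 0.0817, 0.121 and 0.0559), with TMM scaling (adjusted p = 0.0701) and without the mouse as a block (adjusted p = 0.392), with 0.00819 as the lowest.

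Gimap3 was the member called in the opposite direction. Its Castaneus allele gave 1148, 1186, 1044 and 1193 reads in replicates 1 to 4, against 1075, 802, 676 and 914 reads from C57BL/6. The Castaneus share was 51.6%, 59.7%, 60.7% and 56.6%, a mean of 57.2% ± 4.06, and was above the autosomal share in 4 of 4 replicates. The log2 ratio was 0.44 with a standard error of 0.12 (edgeR, adjusted p = 0.0163). The call was lost without replicate 3 (adjusted p = 0.0754), without replicate 4 (adjusted p = 0.0710) and without the mouse as a block (adjusted p = 0.0695), and the adjusted p was as low as 0.000182 in the other alternatives. The log2 ratio itself stayed between 0.37 and 0.55 in all 12.

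Gimap3 had a higher Castaneus share than each of the other members except Gimap5 in 4 of 4 replicates. The difference within a mouse ranged from 4.92 ± 2.23 percentage points over Gimap9 to 21.8 ± 7.81 points over Gimap8. Over its relative Gimap5 it was 9.37 ± 9.34 points and positive in 3 of 4 replicates, with -2.17 points in replicate 1. Gimap3 had the highest mean share of the family, so positive mean differences were fixed by this choice of gene. An exact sign-flip test over 4 replicates cannot give a two-sided p below 0.125, and no other test of the differences between members was run. Of the 50-base stretches of Gimap3 transcripts, 7.52% also occur in Gimap5 transcripts, and 4.53% of those of Gimap5 in Gimap3, and the handling of reads that fit both genes is not stated in the labels.

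**Figure D3:**
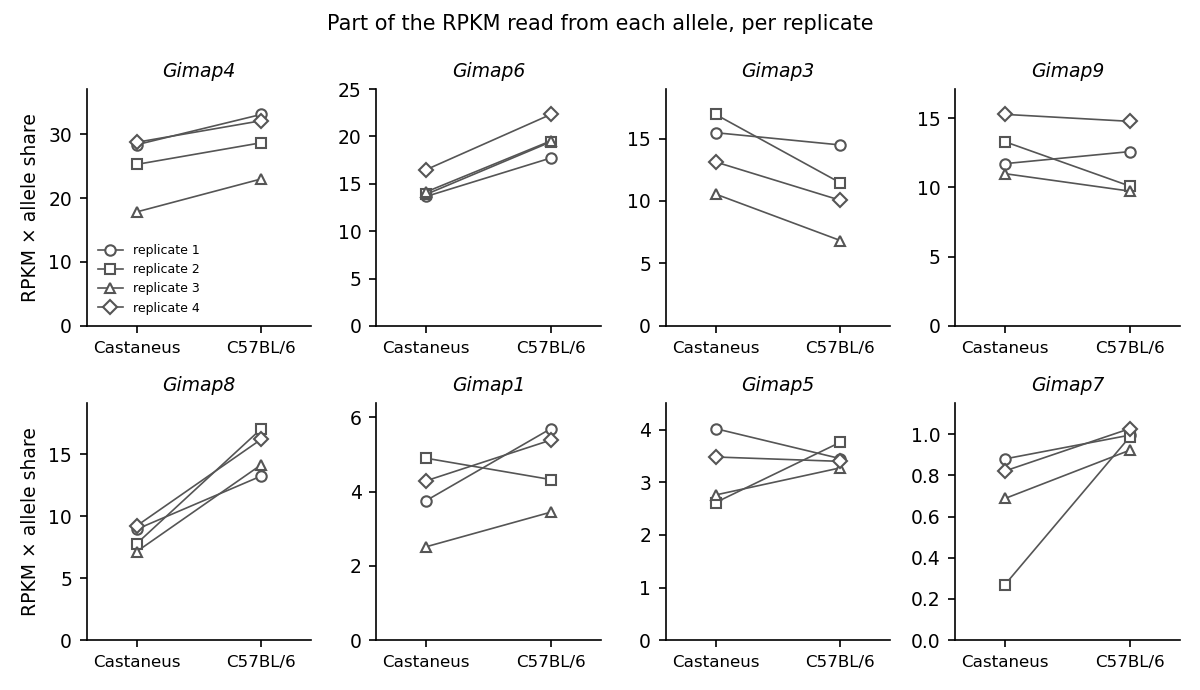
RPKM of each GIMAP gene multiplied by the share of its allelic reads from Castaneus (left) and from C57BL/6 (right), with 1 line per replicate and 1 panel per gene, each axis starting at 0. The lines of Gimap8, Gimap6, Gimap4 and Gimap7 go up towards C57BL/6 in all 4 replicates and those of Gimap3 go down in all 4.

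Split by allele, the level of Gimap8 was 8.27 ± 0.978 RPKM from Castaneus and 15.2 ± 1.77 RPKM from C57BL/6, with no overlap between the alleles. That of Gimap6 was 14.5 ± 1.31 RPKM from Castaneus and 19.8 ± 1.91 RPKM from C57BL/6, also without overlap. The Castaneus part of Gimap3 was 15.5, 16.9, 10.6 and 13.1 RPKM in replicates 1 to 4, against 14.5, 11.4, 6.83 and 10.1 RPKM from C57BL/6. Both parts of Gimap3 were lowest in replicate 3, where its total was lowest too. The parts of Gimap5 were close in their means only, 3.22 ± 0.654 RPKM from Castaneus and 3.47 ± 0.207 RPKM from C57BL/6. They were 4.02 against 3.45 RPKM in replicate 1 and 2.61 against 3.76 RPKM in replicate 2.

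The remaining 4 genes did not pass the test, and their replicates disagreed in direction except for Gimap7. At the estimated reads per molecule, replicate 2 held about 65.5 molecules of Gimap9, 55.3 of Gimap1 and 103 of Gimap5. These were the lowest values of the 4 replicates, and the part of this depth in the disagreement was not tested. The Castaneus share of Gimap9 was 48.2%, 56.8%, 53.0% and 50.8% in replicates 1 to 4, with a log2 ratio of 0.15 with a standard error of 0.12 (edgeR, adjusted p = 0.405). Gimap1 had 39.7%, 53.1%, 42.2% and 44.3%, a log2 ratio of -0.28 with a standard error of 0.15 (edgeR, adjusted p = 0.191), and was called higher from C57BL/6 without replicate 2 (adjusted p = 0.0156) and when reads were divided by the reads per molecule (adjusted p = 0.0316). Gimap5 had 53.8%, 41.0%, 45.7% and 50.6%, with a log2 ratio of -0.10 and a standard error of 0.12 (edgeR, adjusted p = 0.583). Its yield of allelic reads was the highest in the family, at 99.5 ± 8.38 reads per kilobase of exon and RPKM. The 99th percentile over autosomal genes of at least 5 RPKM was 98.0. Equal alleles were not shown for any of them.

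Gimap7 was the least deeply read member. It had 122, 38, 88 and 96 reads from Castaneus in replicates 1 to 4, against 138, 139, 118 and 120 from C57BL/6. Its Castaneus share of 46.9%, 21.5%, 42.7% and 44.4% was below the autosomal share in 4 of 4 replicates, with a mean of 38.9% ± 11.7 and a log2 ratio of -0.65 that had a standard error of 0.42 (edgeR, adjusted p = 0.287). At the estimated reads per molecule, the 177 reads of replicate 2 stand for about 7.82 molecules. Without replicate 2 the log2 ratio was -0.29.

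Added up, 45.9%, 45.2%, 44.1% and 45.8% of the family's reads came from Castaneus in replicates 1 to 4, a mean of 45.3% ± 0.812, against 49.5% to 49.7% of all autosomal reads. The sum was below the autosomal share in 4 of 4 replicates. Gimap6 and Gimap4, which gave most of the reads, weigh most in this share.

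The genes around the cluster were also of mixed direction. Of 10 tested genes within 500 kb on either side, 1 was called higher from Castaneus, 4 were called higher from C57BL/6 and 5 were not called, against 12.4% and 15.6% called in these directions over all genes tested. Of the 4 genes called higher from C57BL/6, Gpnmb and Tra2a were called in all 12 alternatives, while Zfp862-ps and Tmem176b were both lost in 5 of 12, among them edgeR's test without replicate 1, without replicate 3 or without replicate 4, with adjusted p values up to 0.139 for Zfp862-ps and up to 0.275 for Tmem176b. On the proximal side, Lrrc61, 76.5 kb from Gimap8, had 76.3% ± 3.62 of its reads from Castaneus, with a log2 ratio of 1.72 and a standard error of 0.15 (edgeR, adjusted p = 7.42e-06). The genes nearest to Gimap8 on that side, Zfp775 and Repin1, were not called. On the distal side, Tmem176b, 63.0 kb from Gimap3, had 39.3% ± 8.64 of its reads from Castaneus (edgeR, adjusted p = 0.0388), and Gpnmb, 266 kb away, had 24.9% ± 4.44 (edgeR, adjusted p = 9.77e-06). Gimap3 thus lay between Gimap5, which was not called, and Tmem176b, which leaned to C57BL/6 in its mean. In replicate 2, however, Tmem176b had 51.3% of its reads from Castaneus. The part of cells other than T cells in the reads of the flanking genes was not tested.

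**Figure D4:**
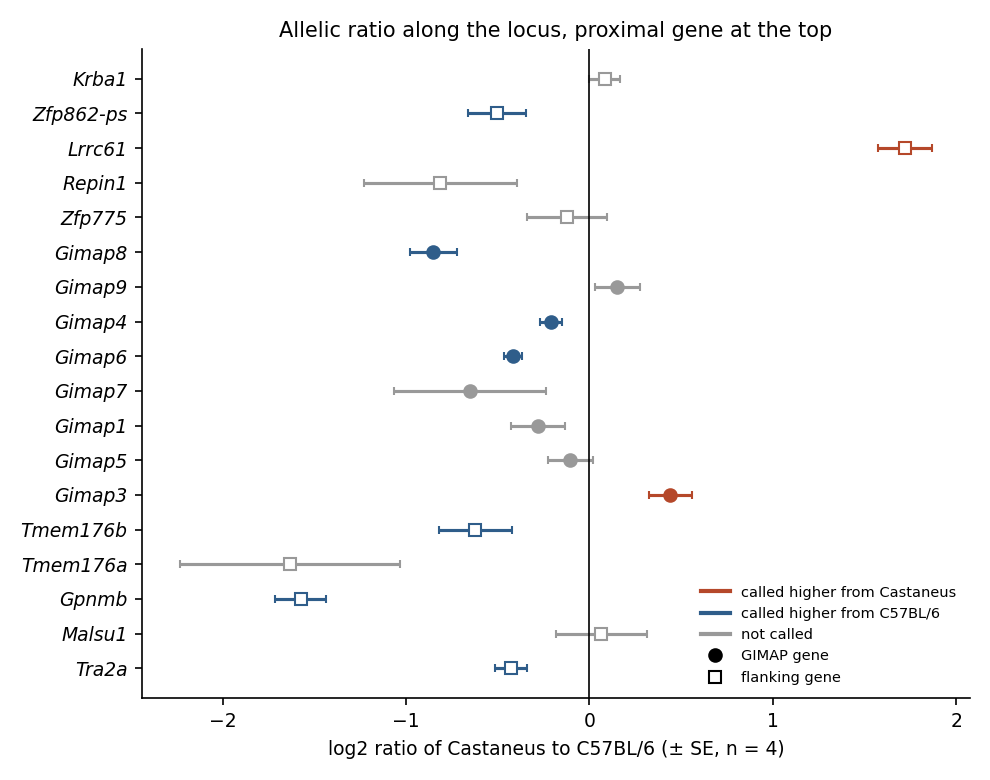
Log2 ratio of Castaneus to C57BL/6 reads with its standard error (edgeR, 4 replicates) for the 8 GIMAP genes as filled circles and 10 flanking genes as open squares, in order along chromosome 6 from top to bottom. Values right of 0 are higher from Castaneus. Gimap8 at -0.85 and Gimap3 at 0.44 mark both ends of the cluster, and Lrrc61 at 1.72 and Gpnmb at -1.58 lie farther out than any member.

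Genes whose products bind GIMAP proteins or act with them were taken from a list of 9, which holds BCL-2 family genes, the chaperone gene Hspa8, the Atg8 gene Gabarapl2, and Gsk3b and Ctnnb1 of the Wnt pathway. All 9 were expressed, with a median of 30.5 RPKM and 6.77 ± 0.286 RPKM for Gabarapl2, the partner of GIMAP6, as the lowest. Of the 9 genes 3 were called higher from Castaneus and 0 higher from C57BL/6 in edgeR, with 4 and 0 at an unadjusted p under 0.05 and 5 and 0 in DESeq2. Over all genes tested, 12.4% and 15.6% were called in these directions in edgeR, 16.4% and 21.6% had an unadjusted p under 0.05, and 18.8% and 18.3% were called in DESeq2. Bcl2l11, which encodes the death-promoting protein BIM, had 58.4% ± 0.909 of its reads from Castaneus (log2 ratio 0.51, edgeR, adjusted p = 1.93e-05). Hspa8 had 52.3% ± 0.318 (edgeR, adjusted p = 0.00103, and 0.211 without the mouse as a block), and Ctnnb1, which encodes beta-catenin, had 53.1% ± 2.74 (edgeR, adjusted p = 0.0417), a call lost in 6 of 12 alternatives with adjusted p values up to 0.315. Bcl2, a survival gene, had 48.7% to 50.9% of its reads from Castaneus over the 4 replicates, Bax, a death gene, had 49.3% ± 1.56, and neither was called.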

How the data were processed

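RNA of 4 libraries was analysed, 1 per replicate of 1 group, with allelic reads per library of 30539711 to 34992012. The authors deposited read counts per gene and allele, not normalized, and RPKM values of both alleles together, per the file headers. STAR 2.7.1a, featureCounts and mm10 are named in the submitters' processing notes. Annotation, allele assignment, strand setting and duplicate removal were not given in the sources used here. The part of alignment and allele assignment in the allelic shares was not tested for any gene.

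Counts were fitted with edgeR 4.0.16 in R 4.3.3 (glmQLFit and glmQLFTest, two-sided), with the replicate as a block because both alleles come from 1 mouse, plus a term for the allele. Each allele's autosomal total served as its library size. Genes needed a mean of 20 allelic reads per replicate and 1 RPKM. The fit was tested on simulated data. Alternatives were DESeq2 1.42.0, TMM factors, no block, chromosome 6 totals, minima of 10 or 100 reads, no RPKM minimum, division by reads per molecule and leaving out each replicate. The named genes are the 8 members, other genes of the cluster, tested genes within 500 kb and the listed genes. The members and lists were chosen with earlier results of these data known. Levels were described without a test. A listed gene of resting T cells is not reported here. Tables and figures used Python 3.11.15, pandas 2.3.3 and matplotlib 3.10.9. All columns of per-sample values were used. P-values of edgeR rest on the spread between 4 mice, with each gene's estimate of it drawn towards a trend over all genes tested. Standard errors are the size of the log2 ratio divided by the square root of the test's F value.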

Additional observations from a re-analysis of the deposited data

Results flagged for a closer look

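Of 18 sets of 4 replicate values, the RPKM and Castaneus share of each gene and of the family, 2 held a replicate far from the others by Dixon's test, where chance gives about 1 in 20. The Castaneus share of Gimap7 was 21.5% in replicate 2, against 42.7% to 46.9% in the other replicates. Replicate 2 had the most reads per molecule, an estimated 22.6, and the fewest Gimap7 reads, 177. The part of this depth in the value was not tested. The level of Gimap1 was 5.96 RPKM in replicate 3, against 9.22 to 9.68 RPKM in the other replicates. Replicate 3 also had the lowest summed T cell markers, 279 RPKM, and their part in the value was not tested.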

How the results depend on the processing

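Without the replicate block, 962 autosomal genes were called higher from Castaneus and 1138 higher from C57BL/6, against 1278 and 1605 with it, and 0 and 2 members were called in edgeR, with 3 members at an unadjusted p under 0.05. The log2 ratio was then -0.20 for Gimap4 and 0.42 for Gimap3, neither of which was called, and the block changed no other call of a member. DESeq2 called 1930 genes higher from Castaneus and 1883 higher from C57BL/6, and edgeR with TMM factors called 1481 and 1352. The larger number towards C57BL/6 in edgeR with autosomal totals was thus not seen in either of these. When 1 replicate was left out, 913 to 1338 genes were called higher from Castaneus and 1041 to 1720 higher from C57BL/6, 1041 being the count without replicate 4, and 0 to 1 and 2 to 4 members. The log2 ratios then ran from -0.23 to -0.16 for Gimap4, from 0.37 to 0.55 for Gimap3, from -0.44 to -0.18 for Gimap1 and from -0.22 to 0.025 for Gimap5, which changed sign without replicate 2 without being called in either case. With TMM factors Gimap4 was at -0.16 and not called, and on the molecule scale Gimap1 was at -0.35 and called. Of the 96 log2 ratios of members under alternatives, 85 kept their direction and call. The family's Castaneus share was 47.0% without Gimap6. The family's mean summed RPKM was 172 to 189 over 7 alternatives, a range set by leaving out 1 replicate. With 4 replicates, leaving 1 out cannot move a mean by 1 SD, so staying within 1 SD was no test. Percentiles of level moved with the genes they were ranked among. Among all genes above 0 they were 92.9 for Gimap8, 93.3 for Gimap9, 97.8 for Gimap4, 95.9 for Gimap6, 56.7 for Gimap7, 79.5 for Gimap1, 75.6 for Gimap5 and 93.3 for Gimap3. Among genes of at least 1 RPKM they were 85.3 for Gimap8, 86.2 for Gimap9, 95.6 for Gimap4, 91.5 for Gimap6, 11.2 for Gimap7, 58.0 for Gimap1, 49.8 for Gimap5 and 86.3 for Gimap3. Where no construction of the alternative shows it, the cause was not tested. Gimap7 had the fewest allelic reads, 859 in all.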

Other observations

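Of the 5 other genes inside the cluster, 0 reached the 1 RPKM needed for the allelic test. Gimap1os, a noncoding transcript on the strand opposite to Gimap1, had 0.425 ± 0.0406 RPKM and 0, 0, 42 and 9 Castaneus reads in replicates 1 to 4, against 64, 24, 72 and 37 reads from C57BL/6. It shares 1107 bases of exon with Gimap1, whose exons cover 3073 bases, and since no label says whether strand was used in counting, reads of that stretch cannot be told apart. Gm28053, a model that joins exons of Gimap7, Gimap1 and Gimap5, shares 81, 198 and 153 bases of exon with them and had 0 Castaneus and 39 C57BL/6 reads over the 4 replicates. The labels do not say how reads on shared exons were counted.

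Genes of T cell state were tested by allele as well. Among the resting T cell genes, Il7r was called higher from Castaneus, with 57.3% ± 3.56 of its reads from it, and S1pr1 higher from C57BL/6, with 42.3% ± 3.24 from Castaneus (edgeR, adjusted p = 0.00182 and 0.0170), while Klf2 and Ccr7 were not called. Of the 4 activated T cell genes tested, Il2ra was called higher from Castaneus, with 52.9% ± 2.27, and Myc higher from C57BL/6, with 34.4% ± 1.90 from Castaneus (edgeR, adjusted p = 0.0174 and 1.29e-05). Over all autosomal genes tested, 12.4% were called higher from Castaneus and 15.6% higher from C57BL/6. The call of Il2ra was lost without the replicate block (adjusted p = 0.348) and that of S1pr1 without replicate 1 or without replicate 4, with adjusted p values up to 0.106, while those of Il7r and Myc held in all 12 alternatives.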
